A study of Mus musculus with 4 samples.

Results

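The genes described here are 39 nuclear receptor genes of the mouse, leaving out the receptors for retinoic acid (RAR) and their partners (RXR). They were picked by gene symbol from a list, without regard to case, and all 39 were listed in every section, among 22218 symbols listed in any. Nuclear receptors are transcription factors that carry a DNA-binding domain and a pocket for a small lipid-soluble ligand. Steroid receptors bind DNA as pairs of the same protein once a hormone is bound. Many of the other members, among them the receptors for thyroid hormone, vitamin D, fatty acids, oxysterols and bile acids, bind as partners of RXR, the partner that RAR also uses, while the orphan members have no settled ligand.

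The study grew brain organoids, tissues that form in suspension from stem cells and hold neurons and glia, from a mouse embryonic stem cell line with the CARLIN lineage barcode and Cas9. Every group carries both alleles. Cells were seeded at 5000 per well and embedded in Matrigel in medium whose B27 supplement lacked vitamin A. The organoids were sectioned after 3 months, and spatial transcriptomes were read on arrays of poly-T spots, each a small region that can hold several cells or part of one.

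From day 9 the VitaminA group received 2% B27 with vitamin A. The ATRA group received all-trans retinoic acid, an agonist of all RAR types, at 1 µM. The BMS753 group received that compound, a RAR alpha agonist, at 1 µM. The BMS961+BMS641 group received a RAR gamma and a RAR beta agonist together at 0.1 µM, so its dose differs from the other ligands. Each group is 1 section, several organoids can share a frozen mold, and all groups come from 1 cell line. There is thus no replicate, no difference between treatments could be tested, and treatment, section and library cannot be told apart.

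The deposited value of a gene in a spot is a quantile-normalised signal, and the number of molecules behind it is unknown. Sections had 552, 593, 469 and 365 spots in the order VitaminA, ATRA, BMS753 and BMS961+BMS641, which is the order of every run of 4 values below. In each spot the genes with the lowest rank tie, and the normalisation split these ties by row order: earlier rows hold 0 and later rows hold a small positive signal, called the lowest class here. A gene was counted as detected in a spot only above that class. Its level is the mean signal over spots, in ppm of the section's summed signal. A spot had a median of 4659, 3388, 3330 and 4462 genes above the lowest class, so the ATRA and BMS753 sections were the poorer ones per spot. Pan-neuronal markers were all listed, 12 of 12, with a median of 48.7, 29.2, 31.2 and 41.2% of spots. Astroglia markers had a median of 13.8, 7.84, 10.2 and 13.0%, near the 11.6, 8.26, 9.38 and 12.3% of all listed genes. No listed marker of neurons, astroglia or any other cell type looked at was at 0 in any section, so that does not set neural cells apart.

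Most nuclear receptor genes were found in all 4 sections. Of the 39, 35, 34, 35 and 35 were detected in at least 5% of spots, and none was absent from a section. Of all listed genes, 70.2, 61.2, 64.7 and 68.6% were detected in at least 5% of spots. The median member was detected in 31.2, 26.8, 30.5 and 29.9% of spots, against 11.6, 8.26, 9.38 and 12.3% over all listed genes. Detection rose with genomic span, the length of a gene on the chromosome, with a Spearman correlation across the 39 members of 0.861, 0.829, 0.796 and 0.781. Those points share the sections' libraries, and the correlation is a description. Set beside the 200 genes nearest in span, 25, 24, 27 and 24 members lay above the median of such genes.

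**Figure D1:**
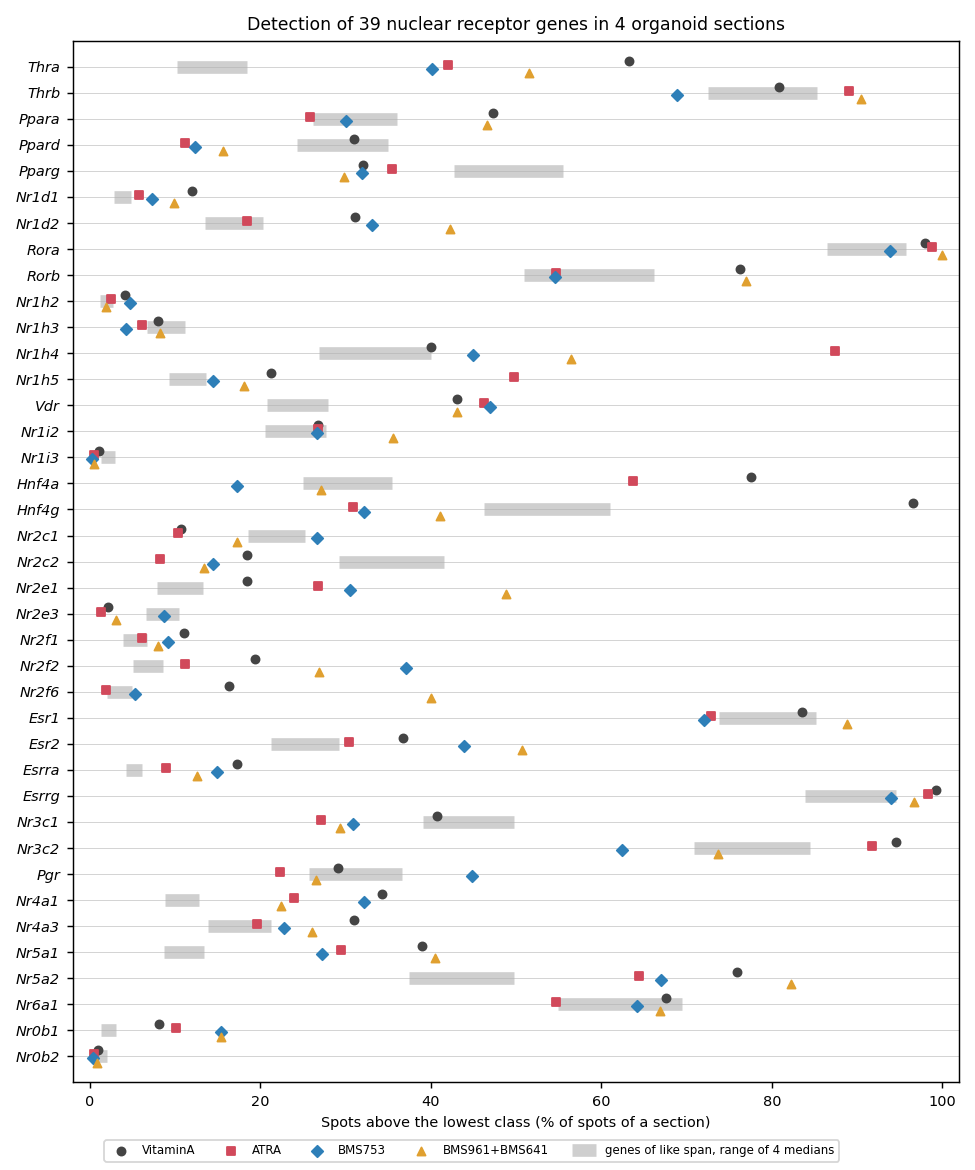
Percent of spots above the lowest class (x axis) for the 39 members (y axis) in the 4 sections, 1 symbol per section; grey bars run over the 4 section medians of the 200 genes nearest in span. Hnf4g in VitaminA (96.6%) and Nr1h4 in ATRA (87.4%) lie far to the right of the other 3 sections, while Nr1i3 and Nr0b2 lie near 0 in all.

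A spot held a median of 15.5, 13, 12 and 14 members. The number of members in a spot followed the number of genes in it, with a Spearman correlation over the spots of a section of 0.857, 0.891, 0.911 and 0.908, again a description. The share of spots is therefore tied to how rich a section's spots are. In these mixed spots fewer cells of a type and less RNA per cell cannot be told apart. Exact (Clopper-Pearson) 95% intervals given below for shares of spots cover counting error over spots only. They all treat the spots of 1 section as independent, so intervals that do not overlap are no comparison of treatments.

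**Figure D2:**
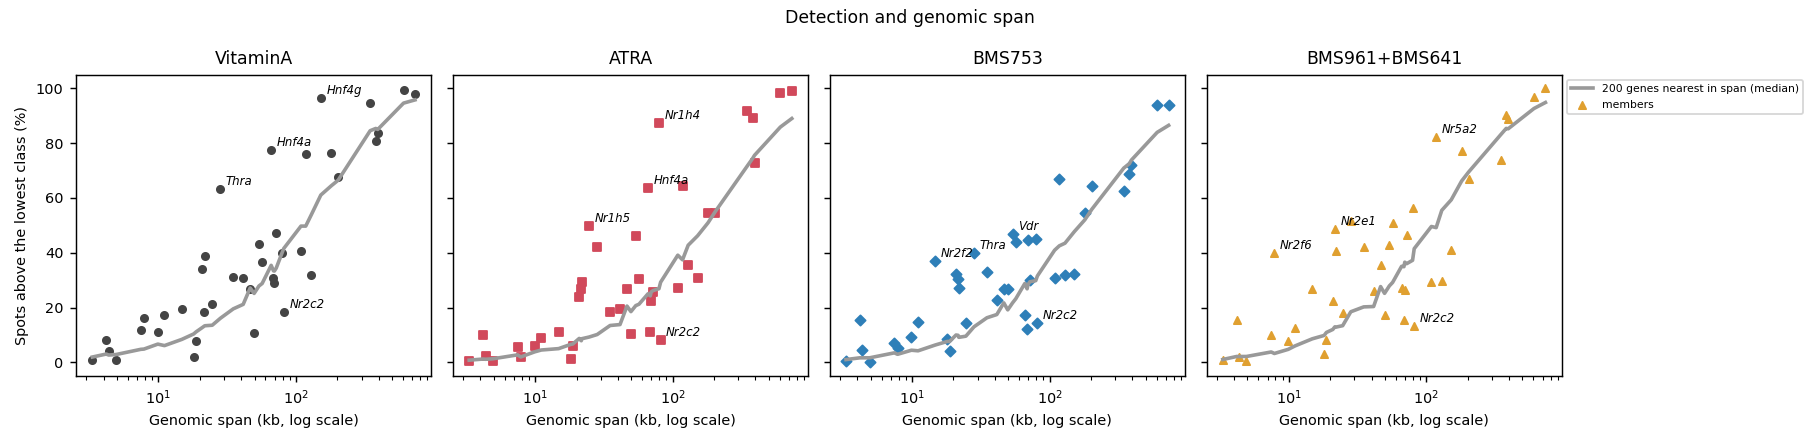
Percent of spots above the lowest class against genomic span in kb (log scale), a panel per section; points are members and the grey line is the median of the 200 genes nearest in span. Detection climbs with span in every section, and Nr2c2 lies below the line in each while Hnf4a lies above it only in VitaminA and ATRA.

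Sections were compared on the log2 ratio of levels with 1 ppm added, centred on the median ratio of all genes that reached 5 ppm in the pair. A member was called higher or lower when the centred ratio was at least 1 or at most -1 and each of the 16 pairs of section quadrants fell on the same side of 0. The quadrants show variation within sections, not between organoids. A gene under 5 ppm in 1 section of a pair was compared only through the other, so its call is not independent of that filter. The stricter rule of 3 measures asks for the same call from the level, from the level with the lowest class at 0, and from the share of spots. The 3 comparisons with VitaminA share that section.

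Between ATRA and VitaminA, 6 of 34 members compared were called higher and 4 lower. That is 17.6% and 11.8% of them, beside 11.6% and 13.6% of all 14794 genes compared. In all 3 measures 2 members were higher (Nr1h4 and Nr1h5) and 2 lower (Hnf4g and Nr2f6), 5.88% each, beside 7.48% and 6.66% of all genes. By the share of spots alone 2 and 2 were called, beside 8.52% and 9.94%, and by the level with the lowest class at 0 it was 7 and 3, beside 14.5% and 13.2%. Between BMS753 and VitaminA, 7 of 37 members were higher and 5 lower, 18.9% and 13.5%, beside 6.45% and 13.7% of all genes. In all 3 measures 3 were higher (Nr2c1, Nr2e3 and Nr2f2) and 2 lower (Hnf4a and Hnf4g), 8.11% and 5.41%, beside 3.53% and 5.99% of all genes. By the share alone 3 and 3 were called, beside 4.79% and 8.6%, and with the lowest class at 0 it was 8 and 4, beside 8.77% and 12.4%. Nr1i3, Nr0b2 and Nr2e3 reached 5 ppm in BMS753 but not in VitaminA. They were thus compared only through the section where they are high, and all were called higher on the level. With a minimum of 20 ppm, 4 of 29 members were higher and 5 lower, beside 5.9% and 15.6% of all genes. Between BMS961+BMS641 and VitaminA, 4 of 34 were higher and 5 lower, 11.8% and 14.7%, beside 12.6% and 13.2% of all genes. In all 3 measures 2 were higher (Nr2e1 and Nr2f6) and 2 lower (Hnf4a and Hnf4g), 5.88% each, beside 7.59% and 6.22% of all genes. By the share alone 2 and 2 were called, beside 9.27% and 9.26%, and with the lowest class at 0 it was 6 and 3, beside 15.1% and 13%. Several of these shares lie near the background and say nothing about the family as such, since 1 member more or fewer moves them by about as much as the gap. The median centred ratio of the members was 0.03, 0.15 and 0.16 in these comparisons. Before centring, the median of all genes was -0.33, 0.31 and -0.25, and without centring 4 members were higher and 5 lower in ATRA, beside 8.33% and 21.8% of all genes. It was 9 and 4 in BMS753, beside 12.4% and 9.29%, and 2 and 6 in BMS961+BMS641, beside 9.43% and 18.8%.

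**Figure D3:**
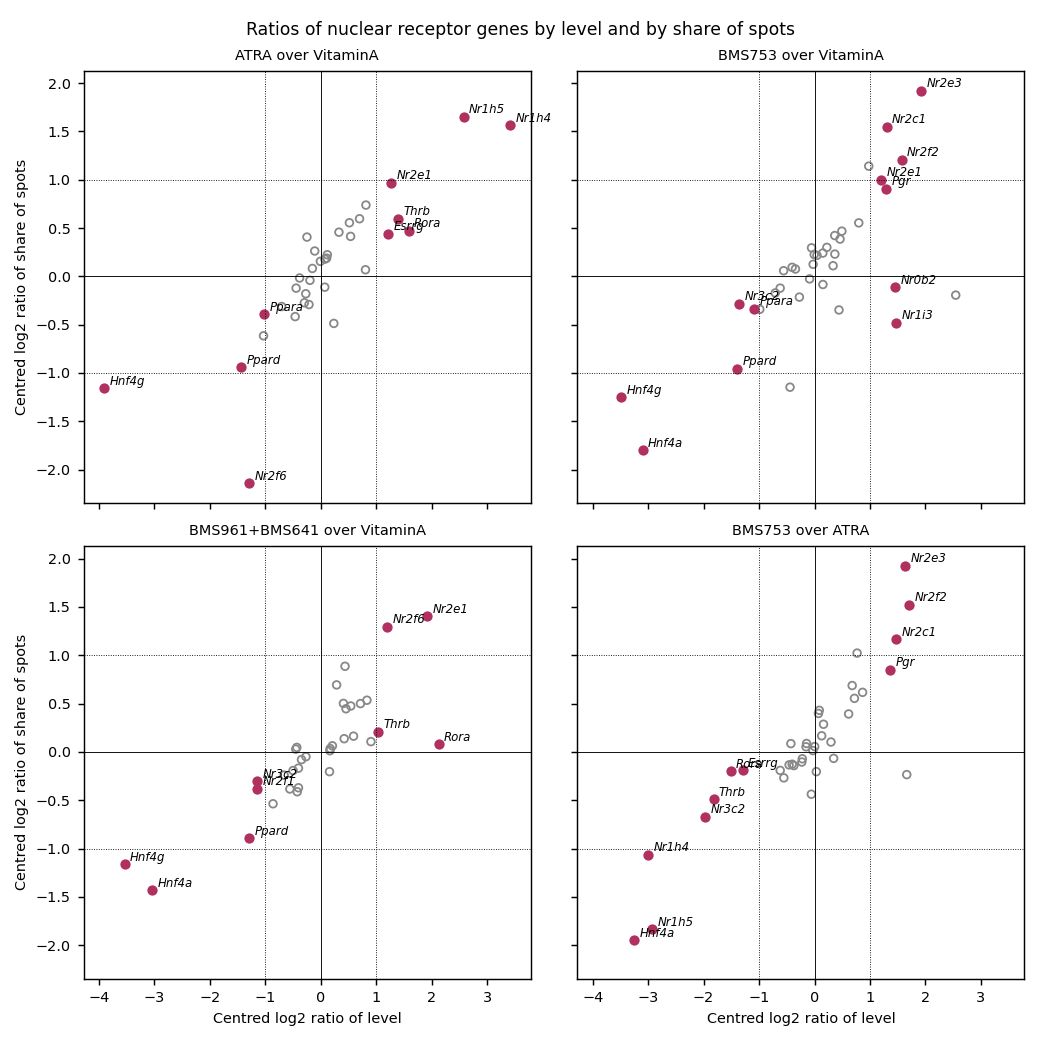
Centred log2 ratio of the level (x axis) against the centred log2 ratio of the share of spots (y axis) for the members compared in 4 pairs of sections; filled and named points were called on the level, and dotted lines mark 1 and -1. Hnf4g, Hnf4a, Nr1h4 and Nr1h5 lie far out on both axes, while Nr1i3 and Nr0b2 in BMS753 are high on the level and below 0 on the share.

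Hnf4g gave the ratio furthest from 0 in each of the 3 comparisons with VitaminA. Hnf4a and Hnf4g encode receptors that bind fatty acids, act as pairs of HNF4 proteins without RXR, and are best known in liver, intestine and kidney. Hnf4g was detected in 96.6, 30.9, 32.2 and 41.1% of spots, with 95% intervals of 94.7 to 97.9%, 27.2 to 34.8%, 28.0 to 36.6% and 36.0 to 46.3%. Its level was 379.9, 19.1, 40.9 and 26.4 ppm. VitaminA stood far above the other sections, and its lowest quadrant, at 361 ppm, was above the highest quadrant of any other section, 53.0 ppm in BMS753. The centred log2 ratio over VitaminA was -3.91 in ATRA (quadrant pairs -4.14 to -3.76), -3.49 in BMS753 (-4.01 to -3.05) and -3.54 in BMS961+BMS641 (-4.49 to -3.12). In VitaminA the gene stood above its first tie class, that is above the lowest value a detected gene can take, in 494 of 533 spots, against 52 of 183, 36 of 151 and 55 of 150 in the other sections. Genes of like span were detected in a median of 61.1, 46.2, 47.8 and 59.3% of spots, so Hnf4g lay above them in VitaminA and below them in the 3 ligand sections.

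Hnf4a was detected in 77.5, 63.7, 17.3 and 27.1% of spots at levels of 99.6, 83.3, 13.5 and 9.21 ppm. It was high in VitaminA and ATRA and low in both sections given BMS compounds, and the quadrants of these 2 pairs of sections did not overlap. Its centred log2 ratio over VitaminA was 0.08 in ATRA (-0.43 to 0.56, not called), -3.10 in BMS753 (-3.48 to -2.56) and -3.04 in BMS961+BMS641 (-3.96 to -2.30). At the matched dose of 1 µM, BMS753 over ATRA gave -3.25 (-3.85 to -2.47). Hnf4a and Hnf4g thus parted in ATRA, where Hnf4g was low and Hnf4a was not. The first of 2 Hnf4a promoters in the RefSeq table is shown here because the gene separates these 2 pairs of sections. It covers 300 bases around the gene's start, most of them upstream, at chr2:163506607-163506906 (GRCm38.p6, plus strand). The search looked on both strands for AGGTCA, the core motif that most RXR partners bind. It also looked for direct repeats with 1, 2, 4 or 5 bases between them, where each copy could be AGGTCA itself, the variant GGGTCA, the variant AGTTCA or the variant GGTTCA. A repeat that holds AGGTCA counts for both searches. Neither search had a match in this window:
Hnf4a: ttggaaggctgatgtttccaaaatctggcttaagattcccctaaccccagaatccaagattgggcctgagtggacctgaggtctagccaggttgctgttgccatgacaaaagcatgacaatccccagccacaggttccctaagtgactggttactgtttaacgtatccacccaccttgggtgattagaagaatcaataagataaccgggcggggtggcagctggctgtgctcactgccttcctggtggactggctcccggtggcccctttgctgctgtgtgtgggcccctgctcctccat

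Of 13 genes listed as hepatocyte genes or HNF4A targets, 1 of 8 compared was called higher and 3 lower in ATRA over VitaminA. In BMS753 it was 1 higher and 2 lower of 7, and in BMS961+BMS641 1 higher and 3 lower of 6. Over all genes compared the shares were 11.6% higher and 13.6% lower in ATRA, 6.45% and 13.7% in BMS753 and 12.6% and 13.2% in BMS961+BMS641. With so few genes in a list, 1 call moves its share by a lot. The counts of this list and of those below are therefore not read as results about a list. Tjp3, a tight junction gene, was called lower in all 3, at 22.1, 6.18, 11.4 and 5.12 ppm. Cdx2, an intestinal transcription factor, was at 6.08 ppm in VitaminA and 23.97 ppm in BMS753, a centred log2 ratio of 1.51. Of 8 endoderm and liver markers, of which Alb, Afp, Foxa2 and Cdx2 are also in the list above, all were listed in every section, with a summed level of 75.7, 44.4, 94.4 and 41.8 ppm and shares of 1.99 to 37.1%, 1.18 to 29.3%, 1.92 to 37.7% and 2.19 to 35.9% of spots. None was at 0. That sum was highest in BMS753, where both HNF4 genes were low. The markers' median share of spots was 8.51, 3.79, 5.44 and 7.95%, highest in VitaminA, where both HNF4 genes were high. The order of the sections thus depends on the measure, and the part of these markers in the HNF4 values was not tested.

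The bile acid receptor gene Nr1h4 and its relative Nr1h5 were high in ATRA. Nr1h4 encodes FXR, the receptor for bile acids, and Nr1h5 its relative FXR beta, which in mouse responds to lanosterol. Nr1h4 was detected in 40.0, 87.4, 45.0 and 56.4% of spots, with intervals of 35.9 to 44.3%, 84.4 to 89.9%, 40.4 to 49.6% and 51.2 to 61.6%. Its level was 26.0, 228, 46.0 and 39.3 ppm. ATRA alone was high, with quadrants between 203 and 245 ppm, and the highest quadrant elsewhere was 65.1 ppm. The centred log2 ratio over VitaminA was 3.42 in ATRA (3.03 to 3.79), 0.49 in BMS753 (-0.20 to 1.26) and 0.83 in BMS961+BMS641 (0.20 to 1.29), the last called only with the lowest class at 0. BMS753 over ATRA was -3.00 (-3.58 to -2.34). In ATRA the gene stood above the first tie class in 405 of its 518 spots, against 60 of 221 in VitaminA.

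The promoter of Nr1h4 is shown because the gene had the largest rise among the members in ATRA. It lies at chr10:89506609-89506908 (GRCm38.p6, minus strand, printed 5′ to 3′ in the gene's direction), and the capitals mark the only AGGTCA match, which is on the opposite strand and so reads TGACCT:
Nr1h4: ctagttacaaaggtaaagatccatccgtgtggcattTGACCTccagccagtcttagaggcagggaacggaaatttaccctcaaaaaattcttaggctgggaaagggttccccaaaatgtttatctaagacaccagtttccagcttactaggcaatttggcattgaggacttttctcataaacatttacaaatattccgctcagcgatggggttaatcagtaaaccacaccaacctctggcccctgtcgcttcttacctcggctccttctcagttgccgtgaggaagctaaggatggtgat

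The same core motif stands in 8 of 48 promoters of the 35 members with an entry, which belong to 7 members, and in 16.3% of all 32851 promoters of the same length. None of the 48 held one of the direct repeats, against 0.222, 0.268, 0.0822 and 0.0974% of all promoters for spacings of 1, 2, 4 and 5 bases. A match is a description of letters and not a binding site.

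Nr1h5 was detected in 21.2, 49.7, 14.5 and 18.1% of spots at 11.1, 56.3, 11.3 and 6.65 ppm. ATRA was again the high section, and its lowest quadrant, 45.0 ppm, was above every quadrant elsewhere. The centred log2 ratio was 2.58 in ATRA over VitaminA (1.79 to 3.76) and -2.93 in BMS753 over ATRA (-4.53 to -1.78). Nr0b2, which encodes SHP, a corepressor and a classical FXR target in liver, was detected in 0.906, 0.506, 0.426 and 0.822% of spots. Abcb11, the bile salt export pump and another FXR target, was at 803 ppm in ATRA and 23.6 ppm in VitaminA, in 96.6% and 21.9% of spots. It was the 1 gene called higher of 7 compared from a list of 13 vitamin D and xenobiotic targets, with none lower. Over all genes compared, 11.6% were higher and 13.6% lower.

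The oxysterol receptors were scarce. Nr1h2 (LXR beta) and Nr1h3 (LXR alpha), which sense oxysterols and switch on cholesterol export, stayed under 5 ppm in all sections. Nr1h2 was detected in 4.17, 2.53, 4.69 and 1.92% of spots and Nr1h3 in 7.97, 6.07, 4.26 and 8.22%. Neither was compared. Of 16 genes of cholesterol export and LXR targets, 12 were compared, with 0 higher and 1 lower in ATRA, 1 and 2 in BMS753 and 1 and 0 in BMS961+BMS641, each over VitaminA. Among all genes it was 11.6% and 13.6% in ATRA, 6.45% and 13.7% in BMS753, and 12.6% and 13.2% in BMS961+BMS641. Abca1, the cholesterol pump, was the higher gene in BMS753, at 99.0 ppm against 37.4 ppm in VitaminA.

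Of the thyroid hormone receptors, Thrb was called and Thra was not. Both bind triiodothyronine with RXR as the usual partner and shape the timing of neural maturation. Thra, which encodes THRA, the receptor that prevails in brain, was detected in 63.2, 42.0, 40.1 and 51.5% of spots at 87.4, 50.7, 54.2 and 45.9 ppm. It was highest in VitaminA but was called in no comparison, with centred ratios of -0.44, -0.99 and -0.66. Its share of spots was well above the 16.1, 10.2, 13 and 18.5% of genes of like span. Thrb, which encodes THRB, was detected in 80.8, 89.0, 68.9 and 90.4% of spots at 140.4, 296, 137 and 242 ppm. ATRA and BMS961+BMS641 were the high sections, with centred ratios of 1.40 (1.21 to 1.73) and 1.04 (0.88 to 1.30), and BMS753 was close to VitaminA at -0.34. BMS753 over ATRA was -1.82 (-2.17 to -1.49). The share of spots, which is near its ceiling for such a gene, gave no call.

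Of 14 genes of thyroid hormone supply and response, 11 were compared, and 2, 1 and 0 were called higher over VitaminA in ATRA, BMS753 and BMS961+BMS641 with none lower. The shares of all genes were 11.6, 6.45 and 12.6% higher and 13.6, 13.7 and 13.2% lower. Hr, a corepressor that is a direct thyroid hormone target in rodent brain, was at 29.3 ppm in ATRA and 12.5 ppm in VitaminA. Shh, a secreted patterning signal, was at 66.3 ppm in ATRA and 11.7 ppm in VitaminA. Slco1c1, a thyroxine transporter, was at 47.9 ppm in BMS753 and 12 ppm in VitaminA.

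**Figure D4:**
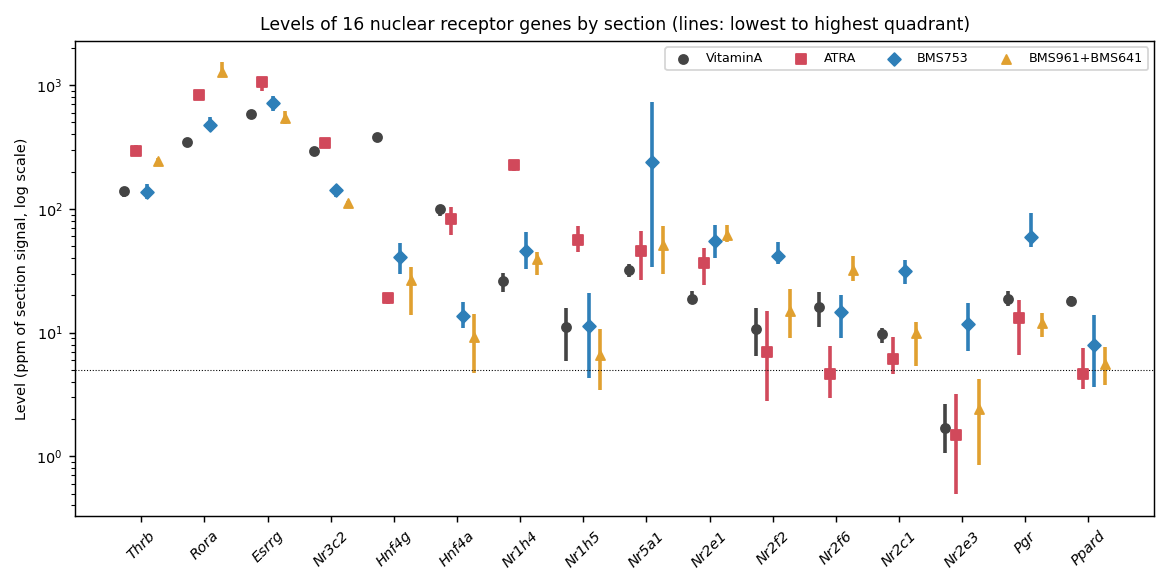
Level in ppm of the section's signal (log scale) of 16 members in the 4 sections; points are section values, vertical lines run from the lowest to the highest of 4 quadrants, and the dotted line marks 5 ppm. The lines of Hnf4g in VitaminA, Nr1h4 in ATRA and Nr2c1 in BMS753 do not meet those of other sections, and the line of Nr5a1 in BMS753 spans 34.1 to 730.3 ppm.

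The ROR receptors, which activate clock genes at the elements that REV-ERB receptors repress, were among the widely detected members. Rora, needed for Purkinje cell development in mouse, was detected in 98.0, 98.8, 93.8 and 100.0% of spots at 348, 833, 479 and 1276 ppm. BMS961+BMS641 was highest and ATRA next, with no overlap of quadrants among the 4 sections. The centred log2 ratio over VitaminA was 1.59 in ATRA (1.43 to 1.74), 0.15 in BMS753 (-0.07 to 0.42) and 2.12 in BMS961+BMS641 (1.90 to 2.46). BMS753 over ATRA gave -1.51 (-1.72 to -1.24). With nearly every spot positive, the share of spots could not show such a difference.

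Rorb, a marker of upper cortical and retinal neurons in mouse, was detected in 76.3, 54.6, 54.6 and 77.0% of spots at 106, 64.5, 80.3 and 103 ppm. It followed the richness of the sections in its share and was called in no comparison. Nr1d2 (REV-ERB beta), a haem-binding clock repressor, was detected in 31.2, 18.4, 33.0 and 42.2% of spots at 32.2, 20.5, 55.5 and 39.5 ppm, without a call. Nr1d1 (REV-ERB alpha) had levels of 28.0, 26.2, 47.8 and 26.2 ppm, yet it was detected in only 12, 5.73, 7.25 and 9.86% of spots. The lowest class made up 59.7, 78.6, 77.5 and 69.0% of its level, so its level is mostly not signal of spots in which it was detected.

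More of the clock partners of these receptors were called lower than higher. Of 18 genes, 15 were compared, and 2 were higher and 5 lower in ATRA, 0 and 6 in BMS753 and 2 and 5 in BMS961+BMS641, each over VitaminA. All genes compared also leaned lower, with 11.6% higher and 13.6% lower in ATRA, 6.45% and 13.7% in BMS753 and 12.6% and 13.2% in BMS961+BMS641. The median centred ratio of the list was -0.61, -0.72 and -0.69, where that of all genes is 0 by centring. Arntl (BMAL1), an activator of the clock, was at 69.2, 255, 107 and 229.7 ppm. Clock, its partner, was at 25.6 ppm in VitaminA and 287 ppm in BMS961+BMS641. Nfil3, a repressor in the output of the clock, was at 22.8, 1.00, 5.55 and 0.561 ppm, low in every ligand section.

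Of the PPAR fatty acid receptors, Ppard was called lower over VitaminA in all 3 ligand sections. Ppara, which encodes PPARA, a driver of fatty acid oxidation, was detected in 47.3, 25.8, 30.1 and 46.6% of spots at 61.1, 23.3, 35.1 and 37.1 ppm. It was called lower in ATRA (-1.02, -1.60 to -0.20) and in BMS753 (-1.09, -1.66 to -0.49), both close to the fold used, and neither call held with the lowest class at 0. Ppard, a widely expressed relative, was detected in 31.0, 11.1, 12.4 and 15.6% of spots at 18.1, 4.60, 8.01 and 5.54 ppm. VitaminA stood above the others in every quadrant, with centred ratios of -1.44, -1.39 and -1.29, and the share of spots gave -0.94, -0.95 and -0.89, short of a call. Pparg, the receptor of fat cells, was detected in 32.1, 35.4, 32.0 and 29.9% of spots at 23.2, 30.2, 33.9 and 15.8 ppm and was not called over VitaminA. Its share was below the 53.9, 42.7, 43.5 and 55.5% of genes of like span. Of 18 PPAR target genes, 10 or 11 were compared, with 0 higher and 2 lower in ATRA, 0 and 2 in BMS753 and 1 and 0 in BMS961+BMS641. Beside these counts stand 11.6% and 13.6%, 6.45% and 13.7%, and 12.6% and 13.2% of all genes.

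Of the vitamin D and xenobiotic receptors, 2 were detected in at least 20% of spots in every section. Vdr, which encodes the vitamin D receptor VDR, was detected in 43.1, 46.2, 46.9 and 43.0% of spots at 40.9, 46.7, 65.8 and 25.1 ppm. Nr1i2 (PXR), which senses foreign compounds in liver and gut, was detected in 26.8, 26.8, 26.7 and 35.6% of spots at 20.7, 20.6, 24.8 and 23.9 ppm. Neither was called. Nr1i3 (CAR), a relative of PXR, was detected in 1.09, 0.506, 0.213 and 0.548% of spots. Its level of 1.07, 3.52, 6.13 and 4.02 ppm came to 62.9, 93.0, 99.1 and 92.5% from the lowest class. Its centred ratio of 1.48 in BMS753 over VitaminA turned to -0.52 with that class at 0, so the sign turned and the call was lost, and the level describes spots in which it was not detected.

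Among the COUP-TF genes, orphan receptors that pattern the forebrain and often oppose RAR and RXR at shared sites, Nr2f2 was called higher in BMS753 and Nr2f6 in BMS961+BMS641, each over VitaminA. Nr2f2 (COUP-TFII) was detected in 19.4, 11.1, 37.1 and 26.8% of spots at 10.6, 6.99, 41.8 and 15.0 ppm. BMS753 was the high section, with quadrants of 36.1 to 53.9 ppm against at most 22.5 ppm elsewhere. Its centred ratio was 1.57 in BMS753 over VitaminA (0.83 to 2.58) and 1.71 over ATRA (0.51 to 3.13).

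Nr2f6 (EAR2) was detected in 16.3, 1.85, 5.33 and 40.0% of spots, with intervals of 13.3 to 19.7%, 0.930 to 3.29%, 3.48 to 7.77% and 34.9 to 45.2%. These intervals treat the spots of 1 section as independent and do not compare treatments. BMS961+BMS641 was high, while in ATRA the gene was in 11 of 593 spots. Its level was 16.2, 4.61, 14.7 and 32.2 ppm, of which 72.1% in ATRA and 40.5% in BMS753 came from the lowest class. The centred ratio of the level over VitaminA was -1.29 in ATRA (-2.16 to -0.11), -0.44 in BMS753 and 1.20 in BMS961+BMS641 (0.54 to 2.07). With the lowest class at 0 the ratio in ATRA was -2.29, and by the share of spots BMS753 was lower as well, at -1.15. The promoter of Nr2f6 is shown because it differs in composition from most. It lies at chr8:71381903-71382202 (GRCm38.p6, minus strand), holds 53 CpG pairs and is 82.7% G or C, against medians of 7 and 52.7% over all promoters, and none of the searched motifs stands in it:
Nr2f6: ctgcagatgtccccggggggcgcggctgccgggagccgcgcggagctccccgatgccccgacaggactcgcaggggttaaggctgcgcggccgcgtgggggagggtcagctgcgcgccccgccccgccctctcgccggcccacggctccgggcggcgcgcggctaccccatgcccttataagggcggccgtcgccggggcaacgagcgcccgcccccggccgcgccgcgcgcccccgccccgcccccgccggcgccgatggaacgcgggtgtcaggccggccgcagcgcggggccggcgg

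Nr2f1 (COUP-TFI), which sets the areas of the cortex in mouse, was detected in 11.1, 6.07, 9.17 and 7.95% of spots at 8.21, 3.49, 6.74 and 2.48 ppm. It was called lower in BMS961+BMS641 over VitaminA (-1.15, -2.05 to -0.40), a call that did not hold with the lowest class at 0, where it was -0.96.

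Nr2e1 (TLX), which keeps neural stem cells dividing, was detected in 18.5, 26.8, 30.5 and 48.8% of spots at 18.6, 36.8, 54.8 and 61.2 ppm. VitaminA was the lowest section and no quadrant of another section fell to its highest, 21.7 ppm. The centred ratio was 1.28 in ATRA (0.49 to 1.75), 1.20 in BMS753 (0.55 to 1.72) and 1.92 in BMS961+BMS641 (1.53 to 2.28), and the last held in all 3 measures. Of 11 neural progenitor markers, 0 of 4 compared were called in ATRA and in BMS753 over VitaminA. In BMS961+BMS641, where 12.6% of all genes were higher, 2 of 5 of these markers were. Their summed level was 87.7, 54.4, 93.9 and 85.6 ppm over 10, 10, 9 and 9 listed genes, and their shares ran from 0.362 to 37.0%, 0.169 to 34.2%, 0.213 to 35.4% and 0.822 to 46.8% of spots, with none at 0. Their part in the values of Nr2e1 was not tested.

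Nr2e3 (PNR), a photoreceptor gene in retina, was rare, in 2.17, 1.35, 8.74 and 3.01% of spots at 1.70, 1.50, 11.7 and 2.40 ppm. It was high in BMS753 alone, in 41 of 469 spots, an interval of 6.35 to 11.7%, and its centred ratio over VitaminA was 1.93 (0.84 to 2.86). Nr2c1 (TR2), an orphan repressor of direct repeat sites, was detected in 10.7, 10.3, 26.7 and 17.3% of spots at 9.66, 6.13, 31.5 and 9.89 ppm. It too was high in BMS753, at 1.30 over VitaminA (0.81 to 1.78) and 1.47 over ATRA (0.61 to 2.10). Its relative Nr2c2 (TR4) was detected in 18.5, 8.26, 14.5 and 13.4% of spots, below the 41.6, 29.3, 31.6 and 41.5% of genes of like span. It was at 12.8, 4.35, 15.0 and 6.84 ppm and was not called.

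**Figure D5:**
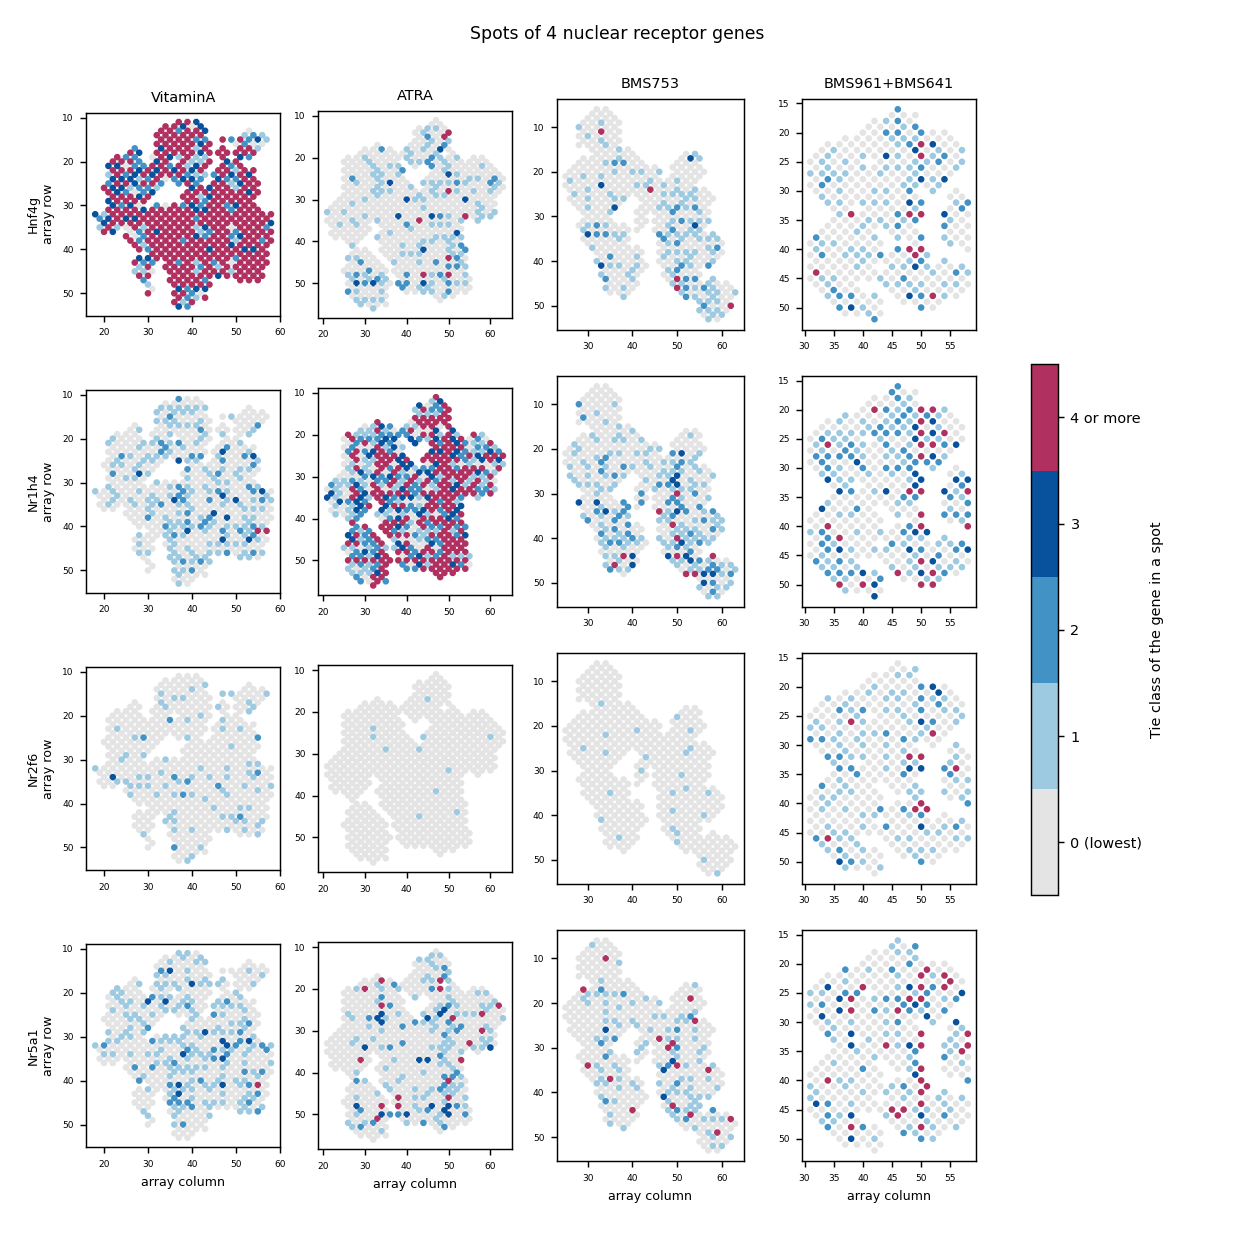
Spots of the 4 sections at their array column and row for Hnf4g, Nr1h4, Nr2f6 and Nr5a1; colour gives the tie class of the gene in the spot, grey for the lowest and red for class 4 or more. Hnf4g fills the VitaminA section and Nr1h4 the ATRA section, while Nr2f6 is in 11 of 593 ATRA spots and in 146 of 365 BMS961+BMS641 spots.

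The oestrogen and related receptors were mostly level. Esr1, oestrogen receptor alpha, was detected in 83.5, 72.8, 72.1 and 88.8% of spots at 137, 101, 128 and 155 ppm. Esr2, oestrogen receptor beta, was detected in 36.8, 30.4, 43.9 and 50.7% of spots at 30.4, 25.8, 66.5 and 33.9 ppm. Esrra, an orphan receptor that drives mitochondrial genes, was detected in 17.2, 8.94, 14.9 and 12.6% of spots at 14.8, 8.11, 23.6 and 9.01 ppm. None of these was called on the level, and Esr2 in BMS753 over VitaminA, at 0.80, was called only with the lowest class at 0. Esrrg, a relative of Esrra, was detected in 99.3, 98.3, 94.0 and 96.7% of spots at 579.8, 1070.3, 715 and 545 ppm. ATRA was the high section, at 1.21 over VitaminA (0.87 to 1.39), and BMS753 over ATRA was -1.30 (-1.62 to -0.84). Of 11 genes of mitochondrial biogenesis and ERR targets, 9 were compared, with no gene higher and 2, 1 and 1 lower over VitaminA. Shares over all genes were 11.6, 6.45 and 12.6% higher and 13.6, 13.7 and 13.2% lower. Tfam, which packs mitochondrial DNA, was lower in all 3, at 38.1, 5.29, 6.48 and 6.13 ppm.

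Among the steroid receptors, Nr3c2 was called lower on the level in both sections given BMS compounds. It encodes the mineralocorticoid receptor, which binds corticosteroids in hippocampal neurons, and was detected in 94.6, 91.7, 62.5 and 73.7% of spots at 296, 342, 142 and 112 ppm. VitaminA and ATRA were high and both sections given BMS compounds low, with no overlap of quadrants between these pairs. The centred ratio over VitaminA was 0.54 in ATRA (0.37 to 0.78), -1.36 in BMS753 (-1.64 to -1.14) and -1.14 in BMS961+BMS641 (-1.30 to -0.98). With the lowest class at 0 the last was -0.91 and no longer called, and by the share of spots both were smaller, at -0.29 and -0.31, with no call. BMS753 over ATRA gave -1.97 (-2.29 to -1.79).

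Nr3c1, the glucocorticoid receptor, was detected in 40.8, 27.2, 30.9 and 29.3% of spots at 76.1, 63.5, 105 and 47.2 ppm, with 24.9, 42.3, 42.4 and 45.9% of the level from the lowest class. It was not called. Of 14 genes of glucocorticoid response and handling, 7, 8 and 8 were compared over VitaminA, with no gene higher and 2 lower in each. Of all genes compared, 11.6, 6.45 and 12.6% were higher and 13.6, 13.7 and 13.2% lower. Hsd11b1, the enzyme that restores active glucocorticoid, was lower in all 3, at 235, 44.5, 33.5 and 40.5 ppm. Pgr, the progesterone receptor and a classical oestrogen target, was detected in 29.2, 22.3, 44.8 and 26.6% of spots at 18.8, 13.2, 59.2 and 12.1 ppm. BMS753 was the high section, at 1.29 over VitaminA (0.84 to 2.11) and 1.37 over ATRA (0.67 to 2.90), and its share of spots gave 0.91 and 0.85.

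Of 11 genes of sex steroid synthesis and response, 4 were compared, with 2 higher in ATRA over VitaminA and none lower. These were Srd5a1, which reduces testosterone, at 1199 ppm against 48.1 ppm, and Cyp19a1, the aromatase that makes oestrogen, at 766 ppm against 39 ppm. In BMS753 it was 0 higher and 1 lower, and in BMS961+BMS641 1 and 1. Over all genes it was 11.6% and 13.6% in ATRA, 6.45% and 13.7% in BMS753, and 12.6% and 13.2% in BMS961+BMS641.

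The NR4A receptors are immediate early genes that neuronal activity switches on. Nr4a1 was detected in 34.2, 23.9, 32.2 and 22.5% of spots at 34.6, 23.7, 44.4 and 15.4 ppm. Nr4a3 was detected in 31.0, 19.6, 22.8 and 26.0% of spots at 31.1, 20.2, 24.9 and 18.1 ppm. Neither was called. Of 13 other immediate early genes, 6, 7 and 7 were compared over VitaminA, with 0 higher and 1 lower in ATRA, 0 and 2 in BMS753 and 1 and 1 in BMS961+BMS641. The 1 higher gene was Egr2, a transcription factor of the hindbrain and of myelinating glia, at 68.9 ppm against 7.80 ppm. Among all genes compared, 11.6, 6.45 and 12.6% were higher and 13.6, 13.7 and 13.2% lower in these comparisons.

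The NR5A receptors bind DNA as single proteins and control steroid and bile acid synthesis. Nr5a1 (SF-1), the regulator of steroid-producing tissues, was detected in 38.9, 29.5, 27.3 and 40.5% of spots, above the 13.4, 8.68, 9.17 and 12.9% of genes of like span. Its level was 32.2, 45.3, 239.5 and 51.2 ppm, high in BMS753, where 1 spot held 79.6% of its signal. In that spot it took 45446 ppm of the signal, and the 5 highest spots held 85.4% of the gene's sum, against a median of 16.6% over genes detected in at least 20% of spots of that section. Its centred ratio in BMS753 over VitaminA was 2.55, with quadrant pairs from -0.38 to 4.33, and 0.35 without the highest spot of each gene, so it was not called on the level. With the lowest class at 0 Nr5a1 was called higher over VitaminA in all 3 ligand sections, at 1.09, 2.88 and 1.17 in the order given above. By the share of spots these ratios were 0.07, -0.19 and 0.11, with no call. The 5 highest spots held 31.7% of the Nr5a1 signal in ATRA and 40.4% in BMS961+BMS641. Over genes detected in at least 20% of spots of these sections, the 95th percentile was 27.2% and 33.5%. The calls with the lowest class at 0 thus lean on few spots there too.

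Nr5a2 (LRH-1), known in liver and embryonic stem cells, was detected in 75.9, 64.4, 67.0 and 82.2% of spots at 120.0, 103, 146 and 152 ppm. Its share was above the 49.7, 37.4, 42.5 and 49.2% of genes of like span. Nr6a1 (GCNF), which silences pluripotency genes as cells differentiate, was detected in 67.6, 54.6, 64.2 and 66.8% of spots at 74.5, 58.8, 119 and 70.2 ppm. Neither was called. The NR0B receptors lack the usual DNA-binding domain. Nr0b1 (DAX-1) was detected in 8.15, 10.1, 15.4 and 15.3% of spots at 9.39, 13.5, 24.3 and 10.8 ppm, with 8.72 to 35.5% of the level from the lowest class. Nr0b1 was not called on the level, at 0.98 in BMS753 over VitaminA, but was called higher there with the lowest class at 0, at 1.02, and by the tie class index, the rank of its class among the values of a spot, at 1.22. Nr0b2 had levels of 1.41, 3.86, 7.16 and 4.38 ppm, of which 67.5, 97.6, 98.7 and 98.5% was lowest class. Its call of 1.45 in BMS753 over VitaminA turned to -0.53 with that class at 0.

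ATRA and BMS753 were given at the same concentration and over the same time, so these do not differ between their sections. Compound, section and library still cannot be told apart, with 1 section each and no test of a difference. Of 37 members compared, 4 were higher and 7 lower in BMS753, 10.8% and 18.9%, beside 5.66% and 13.2% of all 14902 genes. In all 3 measures 3 were higher (Nr2c1, Nr2e3 and Nr2f2) and 3 lower (Nr1h4, Nr1h5 and Hnf4a), 8.11% each, beside 3.31% and 6.46% of all genes. Here too Nr2e3 reached 5 ppm in BMS753 only, so it was compared only through the section where it is high. By the share alone 3 and 3 were called, beside 5.5% and 7.48%, and with the lowest class at 0 it was 4 and 7, beside 8.84% and 13.8%. Pgr was higher, and Thrb, Rora, Esrrg and Nr3c2 were lower, on the level but not on the share of spots. The split depends on the scale here: without centring, where the median of all genes is 0.71, 11 members were higher and 5 lower, beside 21.6% and 6.98% of all genes. Hnf4a, Nr1h4, Nr1h5, Nr3c2 and Thrb were lower and Nr2c1, Nr2e3, Nr2f2 and Pgr higher under both scales, while Rora and Esrrg were lower only with centring. BMS961+BMS641 was given at 0.1 µM, so its values stand beside those of the other ligands without a comparison.

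Moran's I, which is 0 for a gene spread without regard to neighbours and rises towards 1 for one in patches, was computed over 8 neighbouring spots with each spot scaled to its sum. Its median over the 35, 34, 35 and 35 members in at least 5% of spots was 0.0217, 0.0272, 0.0499 and 0.0323, against 0.0115, 0.0227, 0.0296 and 0.0162 over all such genes. The highest value was that of Rorb in BMS753, 0.132, followed by Rora in VitaminA, 0.127, and Esrrg in BMS753, 0.113. Hnf4g in VitaminA had 0.0298 and Nr1h4 in ATRA 0.0327, near the members' medians. On the deposited signal, not divided by the spot's sum, they had 0.157 and 0.133, well above the medians of 0.0344 and 0.0449 there. The spot maps show both over most of their section. Over 4 neighbours the members' median in BMS753 was 0.0224, below the 0.0245 of all genes, so the order of the 2 medians there depends on the neighbours. By the share of spots, 17, 3, 7 and 12 members were highest in VitaminA, ATRA, BMS753 and BMS961+BMS641, against 40.0, 12.1, 13.6 and 34.3% of the 15178 genes set beside them. Those genes were listed in all sections and reached 5 ppm in some section with the lowest class at 0. The members were counted without that filter, so the 2 sets are not chosen alike. The order differs by the level, where 9, 5, 20 and 5 members were highest. With the lowest class at 0 it was 11, 5, 19 and 4, against 31.8, 13.4, 39.1 and 15.8% of those genes. All these counts are of 39 members, and VitaminA had the largest by the share and BMS753 by either level. The same sections led among all those genes by the share and with the lowest class at 0. No such percent over all genes was computed for the level itself.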

How the data were processed

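The 4 sections were each read once on barcoded poly-T arrays, and 4 groups of 1 section follow the labels. What the authors deposited is a signal for every gene in every spot. They quantile-normalised it, each spot of a section against the others. The spot sums still differed, the largest being 25.6, 43.7, 31.4 and 34.1 times the smallest of its section. Levels average this signal as it stands, so spots with large sums weigh more. With every spot weighted equally, 139 of 142 member ratios stayed within the standard deviation of their quadrant pairs and 3 moved. Other settings moved more: 69 of 142 without centring, and 46 of 132 with the highest 5% of spots of each gene left out. By the share of spots 55 moved and 2 reversed, meaning that the sign of a called ratio turned. It was 47 and 2 by the tie class index, and 38 and 2 with the lowest class at 0. The submitters' processing notes name the build mm9. Not given in the sources used here are the aligner and the way of counting. Ties were split by row order: in 551, 592, 468 and 364 spots all rows at 0 precede all rows of the lowest class, and the spot with most genes in each section has no such class. No counts are in these values, so depth is unknown and limits precision by an unknown amount.

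Levels are mean signals as ppm of a section's sum, log2 ratios add 1 ppm, and genes needed 5 ppm in either section. Quadrants were split at the median of both array axes. Spans, matched for 22183 of 22218 symbols, and promoters come from RefSeq (GRCm38.p6), whose coordinates were not joined to the mm9 values. The steps were tested on simulated data. The members, lists and promoters were chosen with earlier results of these data known. Members of at least 20 ppm and in at least 5% of spots in any section, or called, are given in all sections; of 19 lists of other genes, up to 2 called genes a direction of at least 20 ppm are eligible to be named, and marker lists that touch no result are not described. Calculations ran in Python 3.11.15 with numpy 2.4.6, scipy 1.17.1 and pandas 2.3.3, and matplotlib 3.10.9 drew the plots.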

Additional observations from a re-analysis of the deposited data

How the results depend on the processing

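No paired analysis was possible because each group has 1 section. Settings were changed singly, and 2 of them, the tie class index and leaving out the highest spot of each gene, were chosen after the data were seen. Using the share of spots, members called higher and lower were 2 and 2 in ATRA, 3 and 3 in BMS753 and 2 and 2 in BMS961+BMS641 over VitaminA, and 3 were lower in BMS753 over ATRA. With 5 ppm added, 2 were lower in ATRA and 3 in BMS961+BMS641, beside 8.77% and 8.21% of all genes. With a minimum of 20 ppm, 2 were lower in ATRA, 4 higher in BMS753 and 3 lower in BMS961+BMS641, beside 15.9%, 5.9% and 14.2%. Without centring, 2 were higher in BMS961+BMS641 over VitaminA and 11 in BMS753 over ATRA, beside 9.43% and 21.6%. With the lowest class at 0, and with the tie class index, 3 were lower in BMS961+BMS641, beside 13% and 13.2%. The other counts stayed within 1.5 times the value reported.

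Nr1i3 and Nr0b2 in BMS753 over VitaminA reversed: to -0.52 and -0.53 with the lowest class at 0, to -0.48 and -0.11 by share of spots and to -0.80 and -0.39 by tie class index. The median Moran's I of the members was 0.0344 in VitaminA and 0.0449 in ATRA on the deposited signal, and 0.0224 in BMS753 and 0.00256 in BMS961+BMS641 over 4 neighbours. Counting every positive value as detection, the median member was in 47.3, 87.4, 64.2 and 88.8% of spots, since the lowest class then counts; the cause of the other shifts was not tested.

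The main limit is the single section per group, which leaves treatment, organoid, section and library inseparable. The values hold no molecule numbers, the lowest class adds signal to members late in the row order, and levels of Nr1d1, Nr3c1, Nr1i3, Nr0b2 and Nr2f6 rest on it in part.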
